A study of Mus musculus with 10 samples.

Results

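A set of 33 genes of fatty acid oxidation, ketone body metabolism and the response to the nuclear receptor PPAR-alpha was followed through whole mouse liver. They were taken by symbol from a list of pathway genes. The rule itself uses no measured value, but the list was chosen with earlier results of these data known. The genes make up 33 of the 55385 gene rows of each table. All 33 were found and all 33 passed the count filter, among 12872 tested genes. The libraries were made from total RNA of frozen, homogenised whole liver and sequenced on a BGISeq-500 instrument. Of the 10 libraries, 5 carry the genotype label Alk1-HEC-KO and 5 the label Ctrl. The series title names Alk1, an alias of Acvrl1, as the gene knocked out. The labels do not spell out HEC, name no Cre driver, strain, age, sex, diet or feeding state, and do not say whether each library stands for an animal of its own. The p-values therefore measure the spread between these libraries, which may be technical in part.

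In hepatocytes, long-chain fatty acids are bound in the cytosol, activated to acyl-CoA and moved into mitochondria by the carnitine shuttle, where they are cut down to acetyl-CoA. Very long chains are first shortened in peroxisomes, and surplus acetyl-CoA is turned into ketone bodies that other organs burn during fasting. PPAR-alpha, a receptor that binds fatty acids, drives transcription of many of these enzymes and of secreted factors such as FGF21, so the set is known for its rise in the fasted liver.

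Depth was even, at 20.91 to 21.56 M (mega) estimated counts in each library. The targeted gene was low and did not fall with its label: Acvrl1 was at 0.30 to 1.05 TPM (a transcript level scaled to transcript length and to the same sum in every library) in control libraries and 1.12 to 1.92 TPM in libraries labelled Alk1-HEC-KO, called labelled knockout libraries here. By the edgeR test used below its log2 fold change, labelled knockout over control, was 0.99 (SE 0.32, edgeR adjusted p = 0.34), so it was not called. The numbers in the deposited file names fall into 3 runs, the third of which holds labelled knockout libraries 2, 4 and 5 and no control, and what a run is cannot be told from the labels. The acute phase gene Saa1 exceeded 1000 TPM in control library 4 and labelled knockout libraries 4 and 5, and the immediate early gene Fos exceeded 20 TPM in control libraries 1 and 2. Mitochondrially encoded transcripts took 5.82% to 16.60% of the counts.

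None of the 33 genes was called between the groups, and their median stood at the median of all genes. By the quasi-likelihood test of edgeR, 0 of 33 members passed a Benjamini-Hochberg adjusted p of 0.05, where 46 of 12872 tested genes, or 0.357%, did. A single member, Crat, had an unadjusted p under 0.05, against 8.44% of all tested genes. DESeq2 called 0 members, against 1.18% of all genes, and gave 2 members, Crat and Pdk4, an unadjusted p under 0.05. The TPM of the groups overlapped for all 33 members, while they did not overlap for 1.62% of all tested genes.

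The median member log2 fold change, labelled knockout over control, was 0.02, beside 0.00 over all tested genes. Single members ran from -1.16 for Pdk4 to 1.0 for Crat, with 19 members above 0 and 14 below, in a table where 50.4% of all genes were above 0. Scaled by library totals alone, 24 members were above 0 and 9 below, with a median of 0.11 beside 0.07 over all genes. The 95% interval of the fold change lay within 1.5-fold in either direction for 18 members and within 2-fold for 26. Without labelled knockout library 2 the median was -0.12 and 28 members were below 0, against 48.3% of all genes, again with 0 members called.

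**Figure D1:**
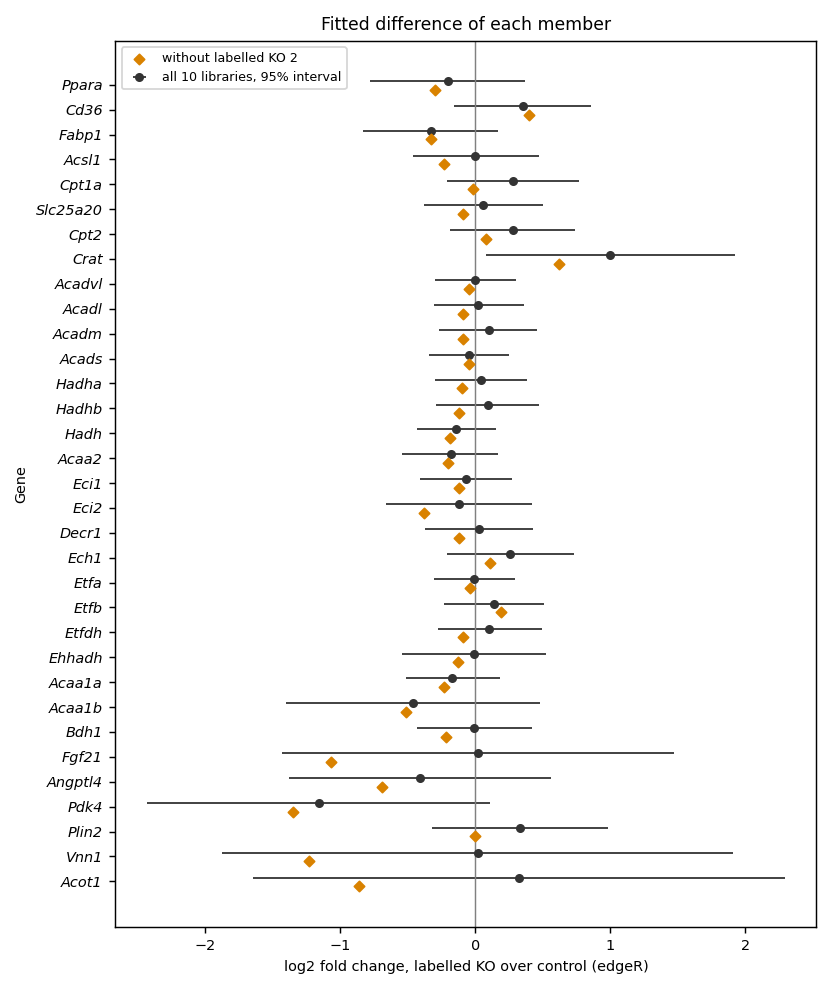
Fitted log2 fold change of each of the 33 members, labelled knockout over control, on the horizontal axis, with its 95% interval (dark points and bars, all 10 libraries) and the value without labelled knockout library 2 (orange diamonds). Only the interval of Crat, from 0.08 to 1.92, lies clear of 0, and most diamonds sit left of their point.

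Ppara encodes PPAR-alpha itself (chromosome 15, 85734983 to 85802819, GRCm38). Control libraries 1 to 5 held 21.2, 27.5, 12.2, 17.7 and 15.7 TPM. The labelled knockout libraries held 17.8, 34.1, 24.8, 14.7 and 10.8 TPM, so both the highest and the lowest library were labelled knockout and the groups overlapped throughout. The fitted log2 fold change was -0.20 (SE 0.26, edgeR adjusted p = 0.87). Mean TPM pointed the other way, at 18.8 ± 5.81 in control and 20.5 ± 9.20 in labelled knockout libraries (SD, n = 5 each).

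The 3 uptake members bring fatty acids into the pathway. Fabp1, the cytosolic fatty acid binding protein of liver, was the most abundant member (chromosome 6, 71199827 to 71205023). Its control libraries held 6348, 6851, 5395, 4142 and 6362 TPM. The labelled knockout libraries held 7308, 5953, 4775, 4533 and 2376 TPM. Library 1 was the highest of all 10 and library 5 the lowest, both labelled knockout. The fitted log2 fold change was -0.33 (SE 0.23, edgeR adjusted p = 0.74), between means of 5820 ± 1076 and 4989 ± 1829 TPM (SD, n = 5 each).

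PPAR-alpha binds DNA with its partner RXR at a direct repeat of the motif AGGTCA with 1 base between the copies. RefSeq windows of GRCm38.p6, 250 bases before to 50 after a start site, were at hand for 28 of the members, in 30 windows. They were searched on both strands for AGGTCANAGGTCA with up to 2 of its 12 fixed letters differing. A match lay in windows of 5 members (Fabp1, Plin2, Cd36, Etfa and Slc25a20), 16.7% of the member windows, where 3.86% of all 32851 windows held one. The Cd36 window lies inside the gene as annotated, and its end is found in no annotated transcript of the gene. The match in Slc25a20 lies 7 to 19 bases after the start site. The match in Fabp1 differed by 1 letter and the others by 2, and a match is a run of letters and not a shown site. The pair of stretches below belong to the most abundant member and to a member that stands apart in 1 library. They are given in the direction of the gene with the match in capitals. That of Fabp1 (chr6:71199629-71199826, plus strand) has its match 67 to 55 bases before the RefSeq start site, and that of Plin2 (chr4:86670061-86670309, minus strand) 225 to 213 bases before it. Both matches read on the strand opposite to the gene.
Fabp1: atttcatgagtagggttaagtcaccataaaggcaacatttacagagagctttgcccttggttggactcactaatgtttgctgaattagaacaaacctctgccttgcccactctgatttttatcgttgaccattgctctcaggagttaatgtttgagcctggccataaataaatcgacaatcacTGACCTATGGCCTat
Plin2: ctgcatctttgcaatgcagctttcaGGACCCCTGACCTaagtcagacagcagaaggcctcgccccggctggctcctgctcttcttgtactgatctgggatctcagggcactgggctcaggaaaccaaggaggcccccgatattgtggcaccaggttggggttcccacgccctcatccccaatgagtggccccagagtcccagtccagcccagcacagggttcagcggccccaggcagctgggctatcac

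Cd36, a fatty acid translocase of the plasma membrane, was low in liver, at 2.26 to 6.10 TPM in control and 3.22 to 8.42 TPM in labelled knockout libraries. Its log2 fold change was 0.35 (SE 0.24, edgeR adjusted p = 0.72). Acsl1, which activates long chains to acyl-CoA, had a log2 fold change of 0.00 (SE 0.22). Its highest library was labelled knockout library 2, at 370 TPM, and its lowest labelled knockout library 5, at 104 TPM.

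All 4 carnitine shuttle genes had fitted values above 0, with a median of 0.28, and 2 of 4 did without labelled knockout library 2. Cpt1a, the carnitine palmitoyltransferase of the outer mitochondrial membrane and the main control point of entry, lies on chromosome 19 (3322334 to 3385733). TPM in control libraries 1 to 5 was 61.6, 80.6, 40.6, 68.8 and 55.8, and in labelled knockout libraries 59.1, 161, 67.7, 69.7 and 44.8. Library 2 alone stood high, at 2.61 times the median of the other 9, while the remaining 4 lay inside the control range. The log2 fold change was 0.28 (SE 0.23, 95% interval -0.21 to 0.77, edgeR adjusted p = 0.78) with all libraries and -0.02 without library 2.

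Crat, the carnitine acetyltransferase that buffers acetyl-CoA, had the largest fitted difference above 0 (chromosome 2, 30400471 to 30415813). Control libraries held 9.07, 10.1, 5.57, 8.87 and 6.64 TPM. Labelled knockout libraries held 9.02, 35.9, 10.5, 8.17 and 16.5 TPM, so libraries 2 and 5 stood well above all controls, library 3 just above and libraries 1 and 4 within them. Its log2 fold change was 1.0 (SE 0.42, a 2.0-fold difference with a 95% interval of 1.06 to 3.79), with an unadjusted edgeR p of 0.036 and an adjusted p of 0.55. An exact two-sided permutation test of log2(TPM + 1) gave p = 0.095. Without library 2 the log2 fold change was 0.62 (SE 0.34). Libraries 2 and 5 both belong to the third run of file numbers. Cpt2, the inner membrane transferase, and Slc25a20, the carrier that exchanges acylcarnitine for carnitine, had log2 fold changes of 0.28 (SE 0.21) and 0.06 (SE 0.20), each with library 2 highest, at 129 and 73.0 TPM.

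The 8 enzymes of mitochondrial beta-oxidation had a median within-group SD of 0.24 log2 CPM (counts scaled to library size), beside 0.31 over all tested genes. Their log2 fold changes ran from -0.18 to 0.10 with a median of 0.01. Acaa2, the thiolase of the last step, was the most abundant of them. It reached 424, 509, 332, 433 and 480 TPM in controls, and 537, 515, 399, 365 and 226 TPM in labelled knockout libraries. Library 5 was the lowest of all 10 and library 1 the highest, both labelled knockout. The fit gave a log2 fold change of -0.18 (SE 0.16, 95% interval -0.54 to 0.17, edgeR adjusted p = 0.80).

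The acyl-CoA dehydrogenases for very long, long, medium and short chains gave near-zero values. Acadvl held 137 to 185 TPM in control and 134 to 213 TPM in labelled knockout libraries, with a log2 fold change of 0.00 (SE 0.14). Of the 31-base words of Acadvl transcripts, 33.2% also occur in Dvl2, so its estimated counts are uncertain. Acadl ran from 53.1 to 83.7 and from 49.2 to 114 TPM, at 0.02 (SE 0.15). Acadm ran from 93.2 to 144 and from 82.7 to 227 TPM, at 0.10 (SE 0.17). In each of these 3 the highest library was labelled knockout 2, and for Acads, at 69.1 to 102 and 63.2 to 107 TPM (-0.05, SE 0.14), it was labelled knockout 1. Hadha and Hadhb, the subunits of the trifunctional protein, were at 0.04 (SE 0.16) and 0.09 (SE 0.18), and Hadh, the short-chain hydroxyacyl-CoA dehydrogenase, at -0.14 (SE 0.13). Hadh ran from 125 to 165 TPM in control and from 84.8 to 203 TPM in labelled knockout libraries, and Hadhb from 60.7 to 94.1 and from 58.7 to 168 TPM. Hadhb shares 23.7% of its 31-base words with other genes, with the same limit. For Hadha, labelled knockout library 2 held 196 TPM and the next library of the group 118 TPM. All 8 had fitted values below 0 without that library, with a median of -0.10.

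**Figure D2:**
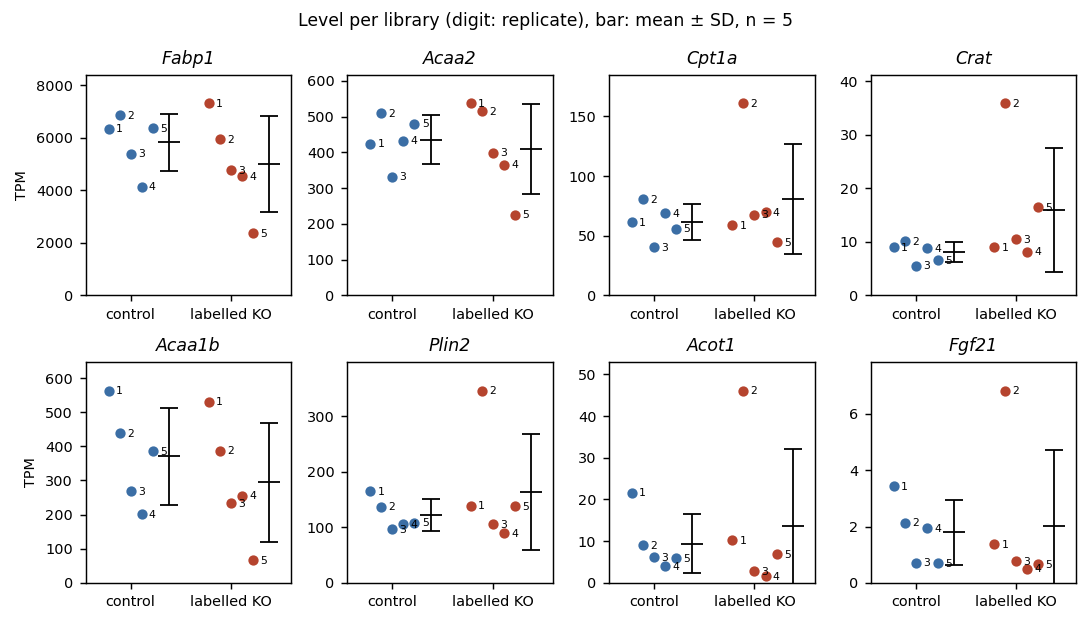
TPM (vertical axes, linear from 0) of 8 members in each library, points numbered by replicate, with mean ± SD (n = 5) beside each group, bars ending at the axis where they would pass 0. Labelled knockout library 2 stands high for Cpt1a, Crat, Plin2, Acot1 and Fgf21 and lies within the other libraries for Fabp1 and Acaa1b.

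The 4 auxiliary enzymes handle the double bonds of unsaturated chains, and their median was -0.02. Ech1, the dienoyl-CoA isomerase, was the most abundant of them (chromosome 7, 28825217 to 28832247). Control libraries held 195, 185, 175, 153 and 231 TPM, against labelled knockout values of 253, 401, 156, 190 and 236 TPM. Libraries 1, 2 and 5 of the labelled knockout group lay above every control and libraries 3 and 4 among them. Between the groups its log2 fold change was 0.26 (SE 0.22, edgeR adjusted p = 0.78; exact permutation p = 0.21). Eci1 and Eci2, the enoyl-CoA isomerases, were at -0.07 (SE 0.16) and -0.12 (SE 0.25), and Decr1, the dienoyl-CoA reductase, at 0.03 (SE 0.19). Eci2 spanned 96.9 to 128 TPM in control and 66.3 to 224 TPM in labelled knockout libraries, where library 2 lay above and libraries 3, 4 and 5 below every control. Other genes share 17.3% of the 31-base words of Eci2 transcripts, so its counts may be split. Eci1 ran from 65.4 to 92.3 and from 55.5 to 111 TPM, and Decr1 from 30.3 to 47.8 and from 29.1 to 70.4 TPM.

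Etfa and Etfb form the flavoprotein that takes electrons from the dehydrogenases, and Etfdh passes them to the respiratory chain. Etfb (chromosome 7, 43444083 to 43457800) held 291, 249, 238, 339 and 348 TPM in control libraries and 385, 358, 270, 351 and 319 TPM in labelled knockout libraries. The 3 highest libraries were labelled knockout and the 2 lowest were controls, with overlap between. The fitted difference on the log2 scale was 0.14 (SE 0.17, edgeR adjusted p = 0.86; exact permutation p = 0.18), and 49.9% of the 31-base words of Etfb transcripts also occur in other genes, so its estimated counts are uncertain. Etfa, at 126 to 186 TPM in control and 98.4 to 207 TPM in labelled knockout libraries, had a log2 fold change of -0.01 (SE 0.14). Etfdh was at 0.10 (SE 0.18), with 120 TPM in labelled knockout library 2 and at most 64.4 TPM in the others of its group.

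The 3 peroxisomal members all had fitted values below 0. Acaa1b, a peroxisomal thiolase, was the most abundant (chromosome 9, 119148023 to 119157093). Control libraries held 563, 438, 268, 201 and 386 TPM, and labelled knockout ones 531, 387, 233, 255 and 66.9 TPM. Library 5 stood at 0.173 times the median of the other 9, and the other 4 lay within the control range. Fitted over all libraries, the log2 fold change was -0.46 (SE 0.43, edgeR adjusted p = 0.81). Acaa1b shares 40.0% of its 31-base words with its near copy Acaa1a, which was at -0.17 (SE 0.16), so reads may have been split between them. Ehhadh, the bifunctional enzyme, was at -0.01 (SE 0.24), with its lowest library, labelled knockout 5, at 24.4 TPM.

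Bdh1 interconverts the ketone bodies acetoacetate and 3-hydroxybutyrate (chromosome 16, 31422280 to 31458901). It held 75.6, 97.1, 61.7, 71.1 and 82.5 TPM in control libraries. The labelled knockout libraries held 87.4, 150, 81.8, 59.1 and 42.8 TPM, which put library 2 above and libraries 4 and 5 below every control. The log2 fold change was -0.01 (SE 0.20, 95% interval -0.43 to 0.42, edgeR adjusted p = 0.99).

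The secreted PPAR-alpha targets varied more. Angptl4, an inhibitor of lipoprotein lipase, held 100, 63.3, 56.2, 39.0 and 61.9 TPM in control libraries (chromosome 17, 33773750 to 33781830). Labelled knockout libraries held 86.7, 104, 31.2, 28.0 and 21.9 TPM. Libraries 3, 4 and 5 lay below every control, while libraries 1 and 2 were among the 3 highest of all. The fit gave a log2 fold change of -0.41 (SE 0.44, edgeR adjusted p = 0.84; exact permutation p = 0.39).

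Fgf21, the fasting hormone made by liver, was low (chromosome 7, 45613886 to 45615490). It held 3.43, 2.14, 0.712, 1.95 and 0.703 TPM in control libraries and 1.37, 6.83, 0.776, 0.507 and 0.650 TPM in labelled knockout libraries. Library 2 was the highest of all at 8.80 times the median of the other 9, and libraries 4 and 5 the lowest. Between the groups its log2 fold change was 0.02 (SE 0.66, edgeR adjusted p = 0.99) with all libraries. It was -1.07 (SE 0.49) without library 2, with an unadjusted edgeR p of 0.049 and an adjusted p of 0.64.

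Plin2 coats lipid droplets (chromosome 4, 86648386 to 86670060) and follows both PPAR-alpha and stored lipid. Control libraries held 165, 137, 96.0, 106 and 108 TPM, and labelled knockout ones 139, 346, 106, 89.3 and 138 TPM. Library 2 stood at 3.20 times the median of the other 9, and the remaining labelled knockout libraries lay in or near the control range. The fitted difference on the log2 scale was 0.33 (SE 0.30, edgeR adjusted p = 0.81), and without library 2 it was 0.00 (SE 0.22).

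Acot1, a cytosolic acyl-CoA thioesterase, and Vnn1, a pantetheinase, had the widest spread of all members. Acot1 held 21.6, 8.97, 6.08, 3.99 and 5.94 TPM in control libraries and 10.2, 46.1, 2.80, 1.61 and 6.81 TPM in labelled knockout libraries. Vnn1 held 7.82, 5.60, 4.47, 2.13 and 6.64 TPM in control libraries and 4.07, 22.8, 0.881, 0.768 and 3.20 TPM in labelled knockout libraries. For both, labelled knockout library 2 was the highest of 10 and libraries 3 and 4 the lowest. Their log2 fold changes were 0.32 (SE 0.87, edgeR adjusted p = 0.94) and 0.02 (SE 0.84, edgeR adjusted p = 1.0), and -0.86 (SE 0.68) and -1.23 (SE 0.59) without library 2. Acot1 shares 16.7% of its 31-base words with Acot2 and 7.52% with Acot5, so its counts may be split.

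Pdk4, the kinase that shuts pyruvate dehydrogenase when fat is burned, was the least abundant member, with a mean of 0.606 TPM. Control libraries held 1.17, 2.39, 0.155, 0.223 and 0.256 TPM, and labelled knockout ones 0.416, 0.695, 0.275, 0.247 and 0.227 TPM. Control libraries 1 and 2 stood high, and these are the libraries with Fos above 20 TPM. The other 3 controls lay among or below the labelled knockout libraries. The log2 fold change of -1.16 (SE 0.59, edgeR adjusted p = 0.63) was 0.42 without those 2 controls. The part of Fos in it was not tested.

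Across the set, 1 library stood apart. In TPM, labelled knockout library 2 was the highest of 10 for 26 of 33 members, or 78.8%, where it was the highest for 26.6% of all tested genes. On the TMM-scaled log2 CPM, which levels the libraries by most genes, it was the highest for 20 members, beside 11.3% of all genes. Its median deviation from each member's median over the 10 libraries was 0.56 log2 units, beside -0.01 over all tested genes. In TPM it was above 2 times the median of the other 9 libraries for 14 members, with Crat at 3.98, Vnn1 at 5.60, Acot1 at 7.59 and Fgf21 at 8.80 times. The share of all tested genes above 2 times is not given here, so the 14 have no background beside them.

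The excess of library 2 was uneven over the roles. The median deviation was 1.65 for the PPAR-alpha targets Pdk4, Plin2, Vnn1 and Acot1, 1.36 for Fgf21 and Angptl4, 0.98 for the carnitine shuttle and 0.35 for the mitochondrial enzymes. It was 0.64 for Bdh1, 0.58 for the auxiliary enzymes, 0.39 for Ppara, 0.16 for uptake genes, 0.14 for electron transfer and 0.09 for peroxisomal genes. In the same library the other peroxisomal oxidation genes stood at 0.25, the other ketone body genes at 0.14 and the other mitochondrial oxidation genes at -0.21. Hepatocyte markers stood at -0.01 and nuclear genes of oxidative phosphorylation and the citric acid cycle at -0.20. The list named other mitochondrial oxidation genes is mixed and not confined to fatty acid oxidation, with Pcca, Pccb, Nudt7 and Acacb among its genes. In TPM, library 2 stood at 2.85 and 2.03 times the median of the other 9 libraries for Slc22a5 and Acad11 of that list. For Nudt7 and Acacb it stood at 0.629 and 0.53 times.

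**Figure D3:**
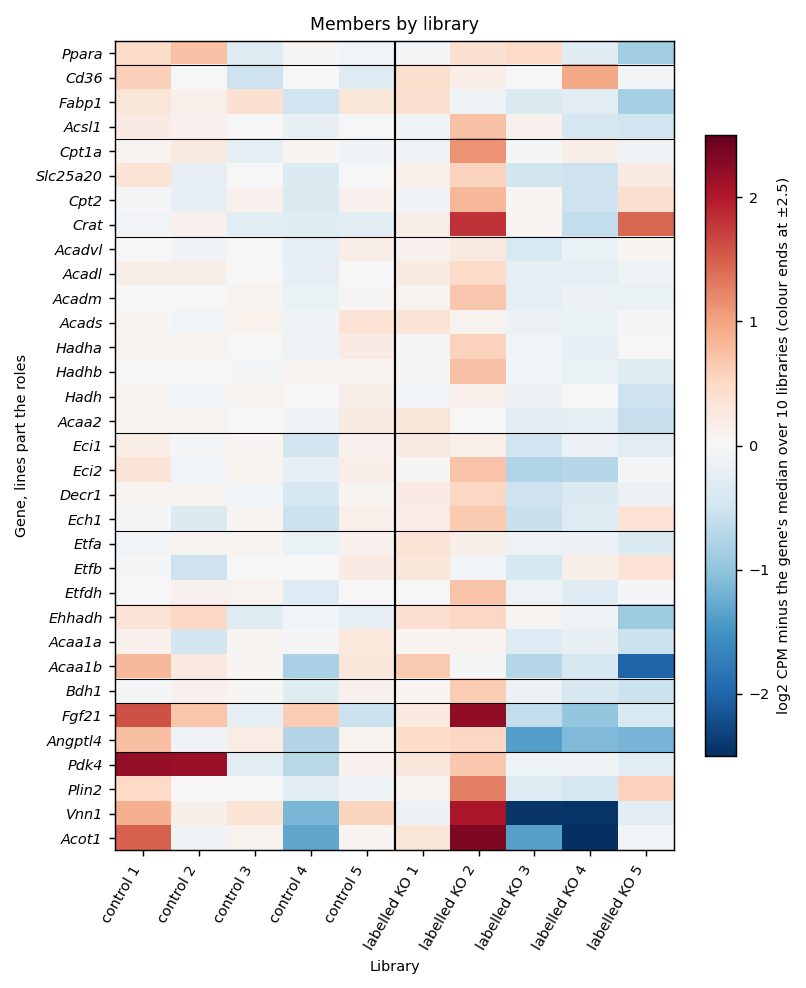
Log2 CPM of each member (rows, grouped by role) in each library (columns) minus the gene's median over the 10 libraries, red above and blue below, with colours ending at 2.5 units. The column of labelled knockout library 2 is red for 30 of 33 members, and those of control library 4 and labelled knockout libraries 3 and 4 are mostly blue, with 5, 6 and 4 members above their median.

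At the other end, labelled knockout library 5 was the lowest of 10 in TPM for 18 of 33 members (54.5%), where it was the lowest for 34.1% of all tested genes. It was also the lowest for 17 of 21 nuclear genes of oxidative phosphorylation and the citric acid cycle. The same held for 11 of 18 other peroxisomal, 10 of 18 tested other mitochondrial and 4 of 8 other ketone body genes, and for 4 of 10 hepatocyte markers. On the TMM-scaled values the lowest places were shared among labelled knockout libraries 5, 4 and 3, with 11, 10 and 8 of 33 members. These libraries were the lowest for 19.6%, 9.63% and 9.06% of all tested genes on that scale. Library 5 carried the most Saa1, at 13331 TPM, and summed member TPM there was 4679, against 7155 to 10524 TPM over the control libraries. Without Fabp1 the sum was 2303 TPM there and 2622 to 3672 TPM in controls. On log2 CPM the median deviation of library 5 was -0.16, beside -0.20 in control library 4, -0.25 in labelled knockout library 3 and -0.27 in library 4. In library 5 the nuclear genes of oxidative phosphorylation and the citric acid cycle stood lower than the members, at -0.35. The other peroxisomal, ketone body and mitochondrial genes stood at -0.25, -0.17 and -0.11 there, and hepatocyte markers at 0.03. The part of the acute phase transcripts in these low values was not tested. Without the 3 libraries with high Saa1 the member median was 0.12, with 0 members called. In whole tissue, fewer cells of a type and less RNA per cell cannot be told apart.

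The labelled knockout libraries spread wider than the controls for 30 of 33 members (90.9%) by the SD of log2 CPM, where they did so for 63.2% of all tested genes. This was not particular to the members. The share was 100% of the nuclear oxidative phosphorylation and citric acid cycle genes. It was 94.4% of the other peroxisomal and of the other mitochondrial genes, and 87.5% of the other ketone body genes. Microsomal omega-oxidation genes gave 81.8%, and the remaining neighbouring lists 62.5% to 72.2%. The within-group SD of log2 CPM had a median of 0.37 over the members and 0.31 over all tested genes, and 20 of 33 members lay above the latter. It was 1.47 for Acot1, 1.43 for Vnn1, 1.07 for Fgf21 and 1.01 for Pdk4, against 0.18 for Hadh and 0.19 for Acadvl. Without labelled knockout library 2 it was smaller for 24 of 33 members, and the share of all tested genes for which it fell is not given here.

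**Figure D4:**
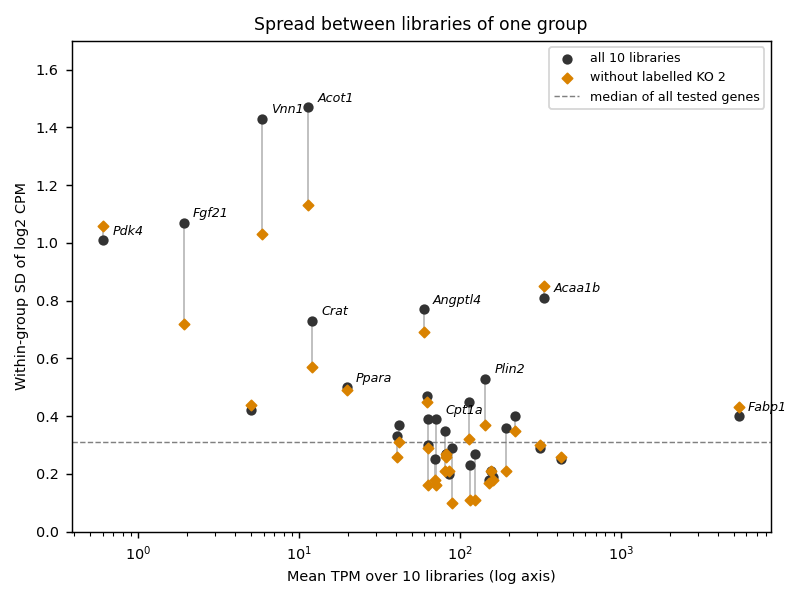
Within-group SD of log2 CPM (vertical axis) of each member against its mean TPM over 10 libraries (horizontal log axis), with all libraries (dark points) and without labelled knockout library 2 (orange diamonds), joined by a line per gene. Acot1, Vnn1, Fgf21 and Pdk4 lie at or above 1.01, and the 8 mitochondrial enzymes lie under the dashed median of all tested genes, 0.31.

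The third run of file numbers holds 3 of the 5 labelled knockout libraries, 2 and 5 among them, so run and genotype cannot be told apart for these. With the run as a covariate the member median was -0.10, with 8 members above 0 and 25 below. Leaving that run out gave -0.07 with the same split, beside -0.02 over all genes in both fits. That run holds no control, so in both fits only labelled knockout libraries 1 and 3 inform the group difference. The fits are therefore not separate checks. Both fits called 0 members, which says little with so few labelled knockout libraries.

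The 143 tested genes of 8 neighbouring pathway lists held 0 calls by edgeR and 9 genes with an unadjusted p under 0.05, and DESeq2 called 1 of them, Cdkn1a. In edgeR, 0 of 8 other ketone body genes, 0 of 18 other peroxisomal genes and 0 of 18 tested other mitochondrial genes passed the adjusted threshold, with 1, 1 and 0 at an unadjusted p under 0.05. Their medians were 0.06, -0.08 and -0.06. The smallest unadjusted p in these lists belonged to Slc16a7, a monocarboxylate transporter, at -0.56 (SE 0.18, edgeR adjusted p = 0.36). Acox3, a peroxisomal acyl-CoA oxidase, was at -0.30 (SE 0.13, adjusted p = 0.55 in edgeR). Oxct1, which uses ketone bodies and is low in hepatocytes, was at 0.63 (SE 0.35), and Mlycd, the malonyl-CoA decarboxylase, at 0.22 (SE 0.12). The abundant Scp2 and Nudt7 were at -0.02 (SE 0.16) and -0.36 (SE 0.22), Pecr at -0.29 (SE 0.16) and Acadsb at -0.22 (SE 0.14).

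Labelled knockout library 2 was the highest of 10 in TPM for 4 of the 11 microsomal omega-oxidation genes (Cyp4a10, Cyp4a14, Cyp4a31 and Cyp4a32). It was the highest for 26.6% of all tested genes, so the count alone sets this list little apart. EdgeR called 0 of the 11, and 1 had an unadjusted p under 0.05, Cyp4a12b at -0.95 (SE 0.28, edgeR adjusted p = 0.30). Cyp4a14, a fatty acid omega-hydroxylase and a PPAR-alpha target, held 7.90, 1.65, 1.88, 4.33 and 3.31 TPM in control libraries. The labelled knockout libraries held 3.41, 188, 2.43, 0.424 and 22.7 TPM, so libraries 2 and 5 stood far above the rest and library 4 lowest. Fitted over all libraries, the log2 fold change was 3.27 (SE 1.48, edgeR adjusted p = 0.60), and -0.56 without the third run. Cyp4a12a was at -0.44 (SE 0.34).

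Of 25 tested genes of uptake, activation and lipid droplets, edgeR called 0, 1 had an unadjusted p under 0.05 and 7 had fitted values above 0. Lpl, lipoprotein lipase, was at -0.95 (SE 0.40, edgeR adjusted p = 0.55), with control library 4 at 16.1 TPM and the other 9 libraries at 2.29 to 7.76 TPM. Acsm1 and Slc27a5, which activate medium chains and bile acids, were at -0.23 (SE 0.14) and -0.09 (SE 0.16). Among 24 co-regulators and upstream factors 0 were called and 2 had an unadjusted p under 0.05. Pparg, the adipogenic receptor of the family, was at -1.22 (SE 0.39, edgeR adjusted p = 0.36) and Ppard at 0.44 (SE 0.17, edgeR adjusted p = 0.48). Creb3l3, a fasting factor that acts with PPAR-alpha, was at 0.19 (SE 0.15).

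The 21 nuclear genes of oxidative phosphorylation and the citric acid cycle had a median of -0.12, with 17 below 0, 0 called and 2 at an unadjusted p under 0.05. These were Idh2, the mitochondrial isocitrate dehydrogenase, at -0.54 (SE 0.16, edgeR adjusted p = 0.28), and Cs, citrate synthase, at -0.39 (SE 0.16, edgeR adjusted p = 0.52). Atp5b was at -0.12 (SE 0.15). Of 18 fasting and feeding genes outside oxidation, edgeR called 0 and 1 had an unadjusted p under 0.05, with a median of -0.44. Cdkn1a, a cell cycle inhibitor, was at 3.87 (SE 1.14, edgeR adjusted p = 0.35), resting on 33.1 and 21.6 TPM in labelled knockout libraries 2 and 5 against at most 2.10 TPM in the other 8. Gdf15, a stress hormone, was at -0.97 (SE 0.57), and Scd1, the stearoyl-CoA desaturase, at -0.44 (SE 0.75).

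Markers of cell types that could carry these genes were set beside them. Of 10 hepatocyte markers 0 were called by edgeR or DESeq2 and 0 had an unadjusted p under 0.05, with a median of 0.06 and summed levels of 55499 to 101736 TPM in control and 65644 to 101695 TPM in labelled knockout libraries. Of 12 endothelial markers edgeR called 3, all higher (Ly6c1, Cd34 and Emcn), and DESeq2 5, and 7 had an unadjusted edgeR p under 0.05, with summed levels of 39.0 to 80.0 and 75.5 to 152 TPM. Of 10 macrophage markers edgeR called 0 and DESeq2 3, 8 had an unadjusted p under 0.05, all had fitted values above 0 with a median of 0.75, and they summed to 120 to 173 and 170 to 365 TPM. Cd36 is also made by endothelial cells and macrophages, and the part of those cells in its value was not tested. Of 8 adipocyte markers 3 passed the count filter and 0 were called. The defining Adipoq, Plin1 and Lep were at 0 or at most 0.275 TPM in every library, while Fabp4 held 3.28 to 13.9 TPM, Lipe 4.98 to 11.5 TPM and Cidec 0.483 to 3.76 TPM. The 3 tested markers summed to 11 to 15 TPM in control and 14.4 to 22.8 TPM in labelled knockout libraries.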

How the data were processed

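Total RNA of whole mouse liver was measured in 10 libraries, 5 per genotype label, with the group taken from the labels. Each library has a table of estimated counts and a table of TPM per gene, deposited by the authors. Per the submitters' processing notes, Trim Galore 0.6.4, kallisto 0.4.6 and the build GRCm38.p6 were used. How transcripts were summed to genes and whether strand was used are not given in the sources used here, so overlapping and antisense genes cannot be told apart. For the count test the estimated counts were rounded, moving library totals by at most 0.0008%. IDs without a symbol held at most 0.013% of counts.

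Genes were filtered with filterByExpr, scaled by TMM and tested over all 12872 kept genes in edgeR 4.0.16 (quasi-likelihood test, robust fit, R 4.3.3). A gene was called at a Benjamini-Hochberg adjusted p under 0.05. Intervals are 95%. Levels are the deposited TPM. Exact two-sided permutation tests of log2(TPM + 1) were run for all 33 members and the genes of the other lists. The lowest p of the members was 0.095, where 5 against 5 can reach 0.0079. The edgeR test was checked on simulated counts.

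The members and the other lists were chosen with earlier results of these data known. Values per library are given for every member called, without overlap of the groups or with an unadjusted p under 0.05, and for the most abundant member of each role. Of other lists, the 2 genes with the smallest p and the most abundant one are named. A gene that this rule takes is not reported here. Acot1, Vnn1, Fgf21, Pdk4 and Cd36, the promoter motif and its mismatch limit were chosen after values were seen. Alternatives were RLE scaling, library totals alone, DESeq2 1.42.0, no count filter, the replicate number as a block, the run of file numbers as a covariate, limma 3.58.1 on log2(TPM + 1) and log2(TPM + 0.1), and leaving out each library, those with high Saa1, those with high Fos or the third run.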

Additional observations from a re-analysis of the deposited data

Results flagged for a closer look

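Within the groups of 5 libraries, 66 sets of values (33 members in each group) were screened for a library far from the others in TPM, and 8 stood out. For independent, normally distributed values the limit used would flag about 1 in 20, or 3.3. TPM need not follow that distribution, and the share flagged over all tested genes is not given here. The count of 8 is therefore not read as an excess. Labelled knockout library 2 accounts for 7 of the 8. It held 161 TPM of Cpt1a where the next library of its group held 69.7, 196 TPM of Hadha against 118, and 120 TPM of Etfdh against 64.4. Plin2 reached 346 TPM there against 139, and Fgf21 6.83 TPM against 1.37. Vnn1 was at 22.8 TPM against 4.07 and Acot1 at 46.1 TPM against 10.2. The other is Acot1 in control library 1, at 21.6 TPM against 8.97. These sets share libraries and are not independent of each other.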

How the results depend on the processing

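The members called stayed at 0 under all 21 alternatives, and their median log2 fold change ran from -0.12 to 0.10 when 1 library was left out and reached 0.12 without the libraries with high Saa1. The number of all genes called, 46, was 152 with DESeq2, 119 without a count filter, 5 with the run of file numbers as a covariate, 30 and 17 without the libraries with high Saa1 or high Fos, 18 without the third run and 33 to 83 over the libraries left out singly, with 83 without labelled knockout library 1. Cdkn1a passed the threshold with DESeq2 (3.88) and Idh2 without labelled knockout library 1 (-0.69). The causes were not tested.

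The numbers of the libraries do not pair them: deviations of same-numbered libraries correlated at 0.28, 0.08, -0.10, -0.04 and 0.11, and 2 of 5 libraries correlated best with their own number. With the replicate number as a block, 0 members and 40 genes were called, the member median was -0.05 with 13 above 0 and 20 below, and these log2 fold changes crossed 0: Acsl1 -0.06, Acadvl -0.01, Decr1 0.00, Fgf21 -0.35, Vnn1 -0.82, Acot1 -0.36.

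Other fitted values crossed 0 as follows, none of them called. Scaled by library totals alone: Acads 0.03, Eci1 0.02, Etfa 0.07, Ehhadh 0.08, Bdh1 0.09, Scp2 0.06. With limma on log2(TPM + 0.1): Ppara 0.06, Acads 0.02, Eci1 0.01, Etfa 0.05, Ehhadh 0.02, Bdh1 0.01, Fgf21 -0.28, Vnn1 -0.71, Acot1 -0.18, Scp2 0.10, Atp5b 0.01. With limma on log2(TPM + 1): Ppara 0.06, Acads 0.02, Eci1 0.01, Etfa 0.05, Ehhadh 0.02, Bdh1 0.01, Fgf21 -0.11, Vnn1 -0.44, Acot1 -0.09, Scp2 0.10, Atp5b 0.01. Without a count filter: Acsl1 0.00, Acadvl -0.01. With the run as a covariate: Ppara 0.08, Acsl1 -0.03, Cpt1a -0.10, Slc25a20 -0.17, Acadvl -0.12, Acadl -0.06, Acadm -0.08, Acads 0.04, Hadha -0.10, Hadhb -0.03, Decr1 -0.13, Ech1 -0.04, Etfa 0.10, Etfdh -0.06, Ehhadh 0.13, Fgf21 -0.89, Plin2 -0.20, Vnn1 -1.51, Acot1 -0.84, Scp2 0.01, Acadsb 0.01, Nudt7 0.15, Cyp4a14 -0.62, Cyp4a12a 0.20, Slc27a5 0.12, Creb3l3 -0.01, Scd1 0.36, Atp5b 0.01. Without the libraries with high Fos: Ppara 0.13, Acadvl -0.01, Ehhadh 0.27, Bdh1 0.02, Pdk4 0.42, Scd1 0.92. Without the libraries with high Saa1: Ppara 0.05, Acadvl -0.01, Acads 0.00, Eci2 0.00, Etfa 0.10, Ehhadh 0.23, Bdh1 0.18, Scp2 0.04, Slc27a5 0.05, and in mean log2(TPM + 1) Acaa2 0.16. Without the third run: Ppara 0.04, Acsl1 -0.03, Cpt1a -0.09, Slc25a20 -0.12, Acadvl -0.10, Acadl -0.02, Acadm -0.06, Acads 0.05, Hadha -0.10, Hadhb -0.03, Decr1 -0.07, Ech1 -0.01, Etfa 0.12, Etfdh -0.05, Ehhadh 0.16, Fgf21 -0.81, Plin2 -0.15, Vnn1 -1.19, Acot1 -0.62, Scp2 0.01, Acadsb 0.02, Nudt7 0.09, Cyp4a14 -0.56, Cyp4a12a 0.15, Slc27a5 0.11, Creb3l3 -0.03, Scd1 0.19, Atp5b 0.03. Over the libraries left out singly: Ehhadh -0.13 to 0.16, Etfa -0.11 to 0.07, Bdh1 -0.22 to 0.11, Scp2 -0.08 to 0.05, Scd1 -0.94 to 0.20, Fgf21 -1.07 to 0.43, Acsl1 -0.23 to 0.12, Slc25a20 -0.09 to 0.17, Acadvl -0.05 to 0.08, Acadl -0.09 to 0.09, Hadha -0.10 to 0.11, Decr1 -0.12 to 0.14, Vnn1 -1.23 to 0.30, Acads -0.14 to 0.05, Cpt1a -0.02 to 0.37, Acadm -0.09 to 0.17, Hadhb -0.12 to 0.18, Etfdh -0.09 to 0.19, Plin2 0.00 to 0.47, Acot1 -0.86 to 0.85, Eci1 -0.16 to 0.02, Eci2 -0.38 to 0.02.

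With 5 libraries a group, a 2-fold difference lay inside the interval for 7 of 33 members: Crat, Acaa1b, Fgf21, Angptl4, Pdk4, Vnn1 and Acot1.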

Other observations

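Of 18 fasting and feeding genes outside the set, labelled knockout library 2 was the highest of 10 in TPM for 3 (Cdkn1a, Pck1 and Igfbp1), where it was the highest for 26.6% of all tested genes. Labelled knockout library 5 was the lowest for 15 of the 18, where it was the lowest for 34.1% of all tested genes. The genes named here were picked after their values were seen. Pck1, which commits carbon to glucose synthesis, held 1967 TPM in library 2 and 408 to 843 TPM in the other labelled knockout libraries, against 500 to 1104 TPM in controls. Igfbp1, a secreted binding protein that insulin holds down, held 597 TPM there, 17.6 to 52.6 TPM in the others of its group and 21.1 to 176 TPM in controls. G6pc and Tat of the same list lay within the controls in library 2. G6pc held 322 TPM there and 75.7 to 346 TPM in controls, and Tat 993 TPM there and 380 to 1428 TPM in controls. Cyp4a10, a PPAR-alpha target of omega-oxidation, held 209 TPM in library 2 and 6.91 to 70.8 TPM in the other 9 libraries. Of the genes of fat synthesis, Thrsp held 164 and 34.1 TPM in labelled knockout libraries 2 and 5 against 469 to 1525 TPM in the other 8, and Fasn 140 and 48.6 TPM against 230 to 659 TPM. Scd1, Me1, Elovl6 and Acaca were lowest in library 5 but not set apart in library 2, at 448, 65.1, 11.2 and 11 TPM there and as low as 296, 37.5, 6.49 and 6.81 TPM in control libraries. The feeding state of the animals is not in the labels, and its part in these values was not tested.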
